A study of Mus musculus with 12 samples.

Results

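The death ligand TRAIL (Tnfsf10), the death receptor Fas, the adaptor Fadd, the initiator caspase Casp8 and 4 members of the BCL2 family (Bid, Bax, Bcl2 and Bcl2l1) were followed in mouse breast tumors treated with a PARP inhibitor, a STING agonist or both. The 8 genes were taken by symbol from the 750 genes of the nCounter table, and all 8 were measured and passed the filter on low values. The tumors came from the K14-Cre;Brcaf/fTrp53f/f model, in which Cre driven by the keratin 14 promoter deletes Brca1 and Trp53 in epithelium, and were grown as transplants in the fat pad of FVB/129P2 females of the same background, whose age is not given. By this design all 12 tumors carry the same deletions, which were not checked here. Vehicle mice received diluted DMSO by the intraperitoneal route and a saline injection into the tumor. Olaparib, which inhibits PARP, was given intraperitoneally at 50 mg/kg on each of 3 days, together with saline in the tumor. ADU-S100, a cyclic dinucleotide that activates STING, was given as 1 injection of 50 μg in 40 μl into the tumor, together with diluted DMSO. The combination group received both drugs. Tumors were taken 3 days after the start, with 3 separate tumors in each of the 4 groups, and are named here by the numbers in their labels.

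Apoptosis can start outside or inside the cell. From outside, TRAIL or Fas ligand clusters death receptors, which bind Fadd and through it caspase-8. Inside, the mitochondrial route is set by the BCL2 family, in which Bax opens the outer mitochondrial membrane, while Bcl2 and Bcl-xL (the product of Bcl2l1) hold it closed. Bid joins the routes, since caspase-8 cleaves it into a form that activates Bax. TRAIL is made by many immune cells and is a known target of interferon, and Fas is carried by both tumor and immune cells.

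The values are normalized counts: color-coded probes were counted one by one without amplification, and each tumor's counts were then multiplied by 1 scaling factor. The counts behind the values could be recovered and summed to between 106206 (the olaparib tumor 1517) and 1519471 (the vehicle tumor 1269), with scaling factors from 0.589 to 10.5. Olaparib 1517 stands apart with the highest factor, so that each of its counts weighs 10.5 normalized counts. Epithelial markers were abundant in every group, as the label of a breast tumor asks: Epcam, Cdh1 and Muc1 together reached 10802 to 21499 in vehicle, 11861 to 19063 in ADU-S100, 12324 to 22177 in olaparib and 17779 to 20694 in combination tumors. Trp53 ranged from 289 to 3930 over the 12 tumors, which does not check the deletion because the position of its probe is not given. The RNA is from whole pieces of tumor, in which fewer cells of a type and less RNA per cell cannot be told apart. In 1 limma model of 689 genes over the 12 tumors, 0 genes passed an adjusted p of 0.05 in any of the 6 comparisons made, while 33 to 75 had an unadjusted p under 0.05. The edgeR fits on the recovered counts also called 0 genes (35 to 125 unadjusted), and the methods' t-test called 3 in combination against vehicle, none of them among the 8.

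Tnfsf10 is the one of the 8 genes in which the combination tumors differed most from the rest, and the 250 bases before its start are printed together with those before Fas, the death receptor. Within 250 bases before to 50 bases after the start (RefSeq, GRCm38.p6), the 10 windows that matched the 8 genes were searched on both strands for the interferon-stimulated response element, written GAAANNGAAA, and for the STAT element, written TTCNNNGAA. The first was found in 0 of the 10 windows and is present in 3.44% of 32851 mouse promoters. The second was found in the window of Fas alone, 93 bases before the start, and is present in 8.30% of the promoters. These letters describe the window only. The Tnfsf10 sequence lies on the plus strand at chr3:27316827-27317076 and the Fas sequence on the plus strand at chr19:34290409-34290658, with the STAT element in capitals.
Tnfsf10: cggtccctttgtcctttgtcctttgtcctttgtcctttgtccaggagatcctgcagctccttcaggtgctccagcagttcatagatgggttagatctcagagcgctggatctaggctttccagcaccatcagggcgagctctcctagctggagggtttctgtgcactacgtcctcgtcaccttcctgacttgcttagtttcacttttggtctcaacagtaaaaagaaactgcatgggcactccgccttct
Fas: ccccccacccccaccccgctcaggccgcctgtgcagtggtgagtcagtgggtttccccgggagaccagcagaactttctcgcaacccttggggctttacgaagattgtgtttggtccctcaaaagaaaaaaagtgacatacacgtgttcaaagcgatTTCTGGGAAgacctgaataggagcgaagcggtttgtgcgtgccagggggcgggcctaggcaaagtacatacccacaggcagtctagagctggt

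As deposited, the TRAIL gene Tnfsf10 was higher in each combination tumor than in any of the other 9, but the spread between tumors was wide, the difference did not pass the test, and under other scalings 1 vehicle tumor reached into the combination range. Tnfsf10 reached 855 normalized counts in the combination tumor 1251, 1387 in 1270 and 624 in 1539. It was 570, 388 and 147 in the vehicle tumors 1269, 1529 and 1536. The combination tumors did not overlap with vehicle, although vehicle 1269 came close to combination 1539. Tnfsf10 was 419, 62.9 and 211 in the ADU-S100 tumors 1506, 1512 and 1513, and 308, 335 and 267 in the olaparib tumors 1510, 1517 and 1521. The ADU-S100 tumors were spread on both sides of the olaparib tumors, which lay close together within the vehicle range. The group means were 956 ± 392 (SD, n = 3) in combination, 368 ± 212 (SD, n = 3) in vehicle, 303 ± 34.4 (SD, n = 3) in olaparib and 231 ± 179 (SD, n = 3) in ADU-S100. In this order only the combination and vehicle groups are neighbors that did not overlap. Tnfsf10 was the only one of the 8 genes with every combination tumor above the 9 others, a pattern seen in 22 of 689 genes (3.19%). The pattern belongs to the authors' scaling: after median scaling, quantile normalization or TMM normalization the vehicle tumor 1269 was above the combination tumor 1539, while each combination tumor was still above every ADU-S100 and every olaparib tumor.

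**Figure D1:**
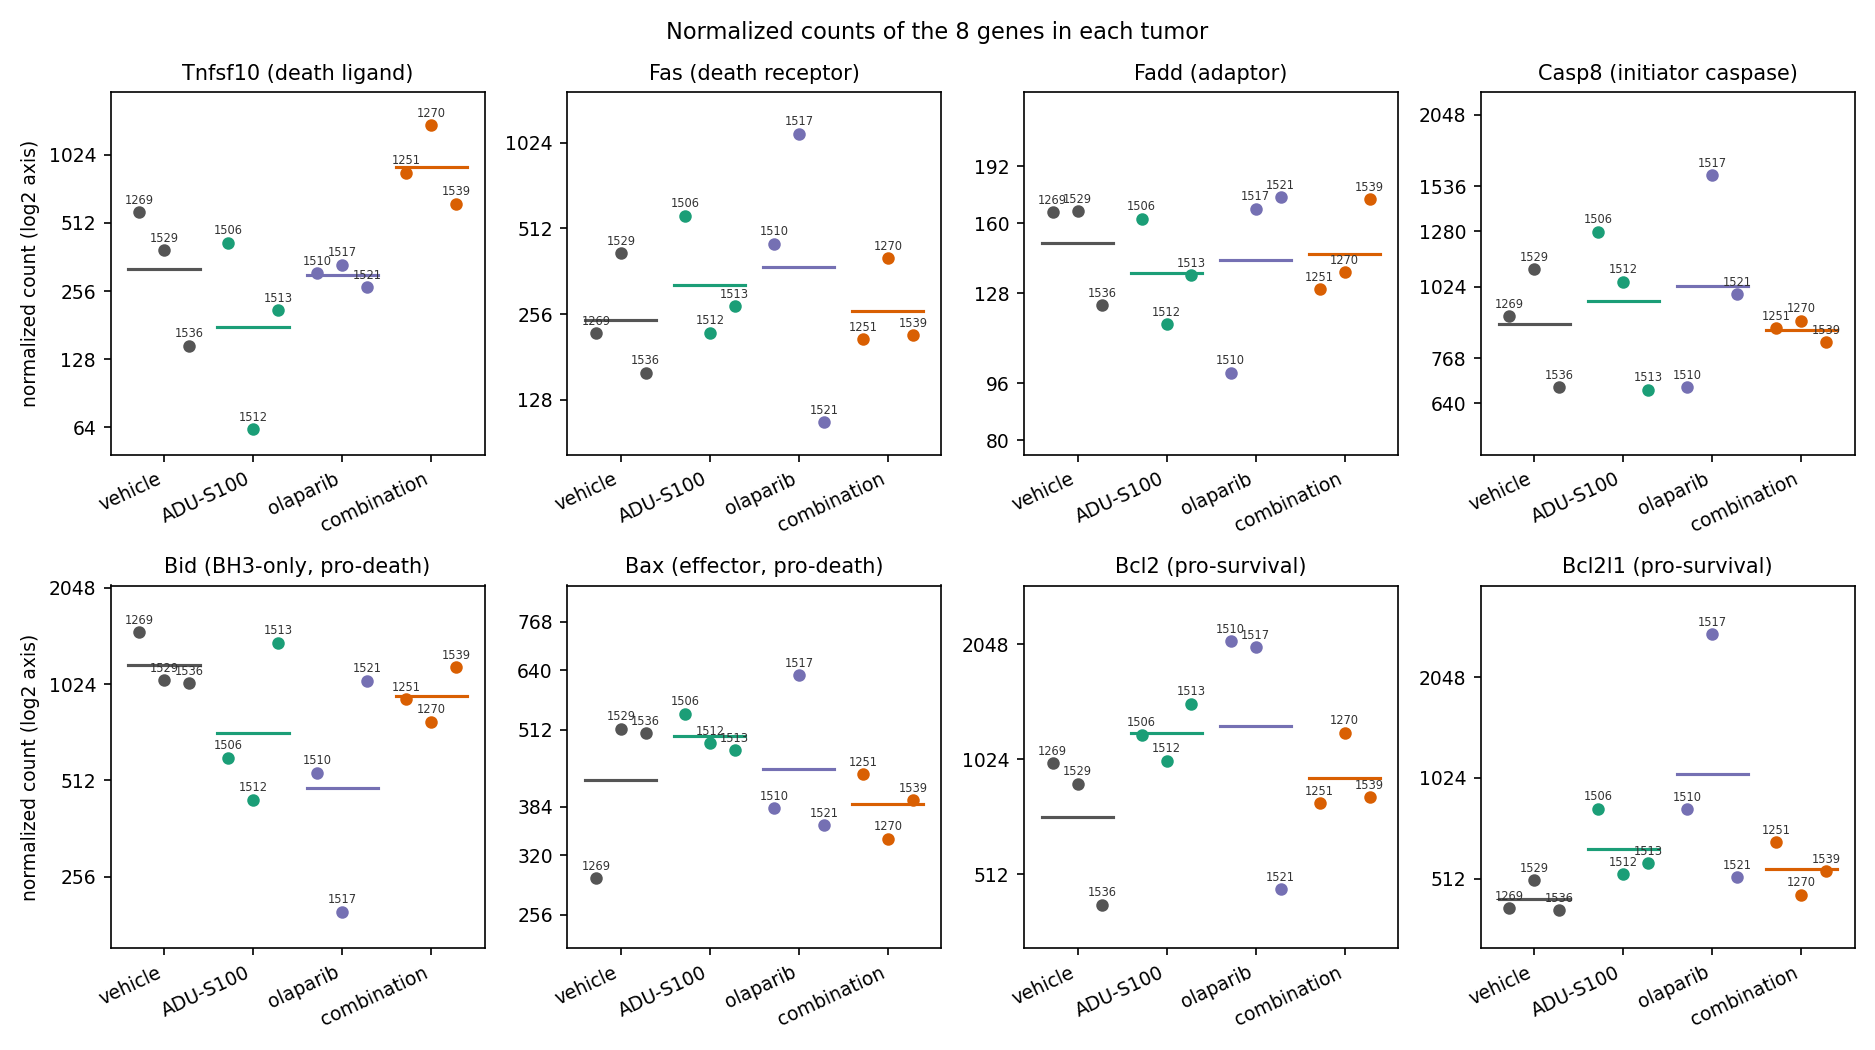
Normalized counts (log2 axis, which does not start at 0) of the 8 genes in each of 12 tumors, by treatment, with the tumor number above each point and the geometric mean of the group as a line. The Tnfsf10 points of the combination, from 624 to 1387, lie above all others as deposited, the highest of which is 570 in vehicle 1269, while the combination points of the other 7 genes lie within the range of the rest.

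Against vehicle, the log2 fold change of Tnfsf10 in the combination was 1.50 (SE 0.69), a fold of 2.83, with a limma adjusted p of 0.638 over the 689 genes. Against ADU-S100 it was 2.34 (SE 0.69), a fold of 5.07, with an adjusted p of 0.492, and against olaparib 1.58 (SE 0.69), a fold of 2.99, with an adjusted p of 0.594. These comparisons share the combination tumors, so they are not independent of each other. The mean of neither single drug was above that of vehicle: the log2 fold change was -0.84 for ADU-S100 (adjusted p = 0.809) and -0.08 for olaparib (adjusted p = 0.972). The former was -0.10 without the ADU-S100 tumor 1512 and -1.46 without 1506. The latter ran from -0.64 without the vehicle tumor 1536 to 0.34 without the vehicle tumor 1269. The interaction, that is the ADU-S100 effect in olaparib-treated tumors less that in tumors without olaparib, was 2.42 (SE 0.97, adjusted p = 0.407). The change against ADU-S100 lay at percentile 99.6 and the interaction at percentile 99.1 of the 689 genes, although both share the low ADU-S100 tumor 1512, in which Tnfsf10 rests on 32 recovered counts (exact Poisson 95% interval 21.9 to 45.2, counting error only). Without that tumor the change against ADU-S100 was 1.60 and the interaction 1.68. The change against vehicle was lowest without the vehicle tumor 1536, at 0.94, and highest without the vehicle tumor 1269, at 1.92.

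Tumor numbers start with 12 or with 15, and what this marks is not given. Within the 12 series the combination tumors 1251 and 1270 (855 and 1387) were above the vehicle tumor 1269 (570), and within the 15 series the combination tumor 1539 (624) was above the vehicle tumors 1529 and 1536 (388 and 147). Vehicle 1269 was the highest of the 9 tumors outside the combination. With the series as a block, the change of Tnfsf10 in the combination was 1.16 relative to vehicle, 1.66 relative to ADU-S100 and 0.89 relative to olaparib, and the interaction was 1.40. Its change in olaparib against vehicle was then 0.26. Since the ADU-S100 and olaparib groups lie wholly in the 15 series, a comparison with them inside the series rests on the combination tumor 1539 alone.

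Because each tumor's values share 1 factor, it cancels in ratios between genes of the same tumor, which are compared here only between tumors, with no test. They can still follow the depth of the tumor, since some of the 8 genes went up and others down with the factor. Relative to the mean of the other 7 genes and to the vehicle mean, log2 Tnfsf10 was 1.44 in the combination tumor 1251, 2.05 in 1270 and 0.93 in 1539. The vehicle tumors were at 0.81 (1269), 0.02 (1529) and -0.82 (1536), so that the combination lay above them but vehicle 1269 came near combination 1539. The mean was 1.47 ± 0.56 (SD, n = 3) in combination, -0.31 ± 0.34 (SD, n = 3) in olaparib and, with the widest spread, -1.02 ± 1.13 (SD, n = 3) in ADU-S100 tumors. The ratio of ligand to receptor, Tnfsf10 over Fas, gave the same order at the ends: 1.40 ± 0.25 (SD, n = 3) in combination and -1.26 ± 0.81 (SD, n = 3) in ADU-S100 tumors on the log2 scale relative to vehicle, neither overlapping with vehicle. For olaparib it was -0.70 ± 1.53 (SD, n = 3) and ran across the vehicle range. Fas is not the receptor of TRAIL, so this ratio compares the 2 death systems and not a ligand with its own receptor. The TRAIL receptor Tnfrsf10b was measured, and its log2 fold change was -0.35 in combination, 0.11 in ADU-S100 and 0.64 in olaparib tumors against vehicle (SE 0.49, adjusted p between 0.630 and 0.989).

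**Figure D2:**
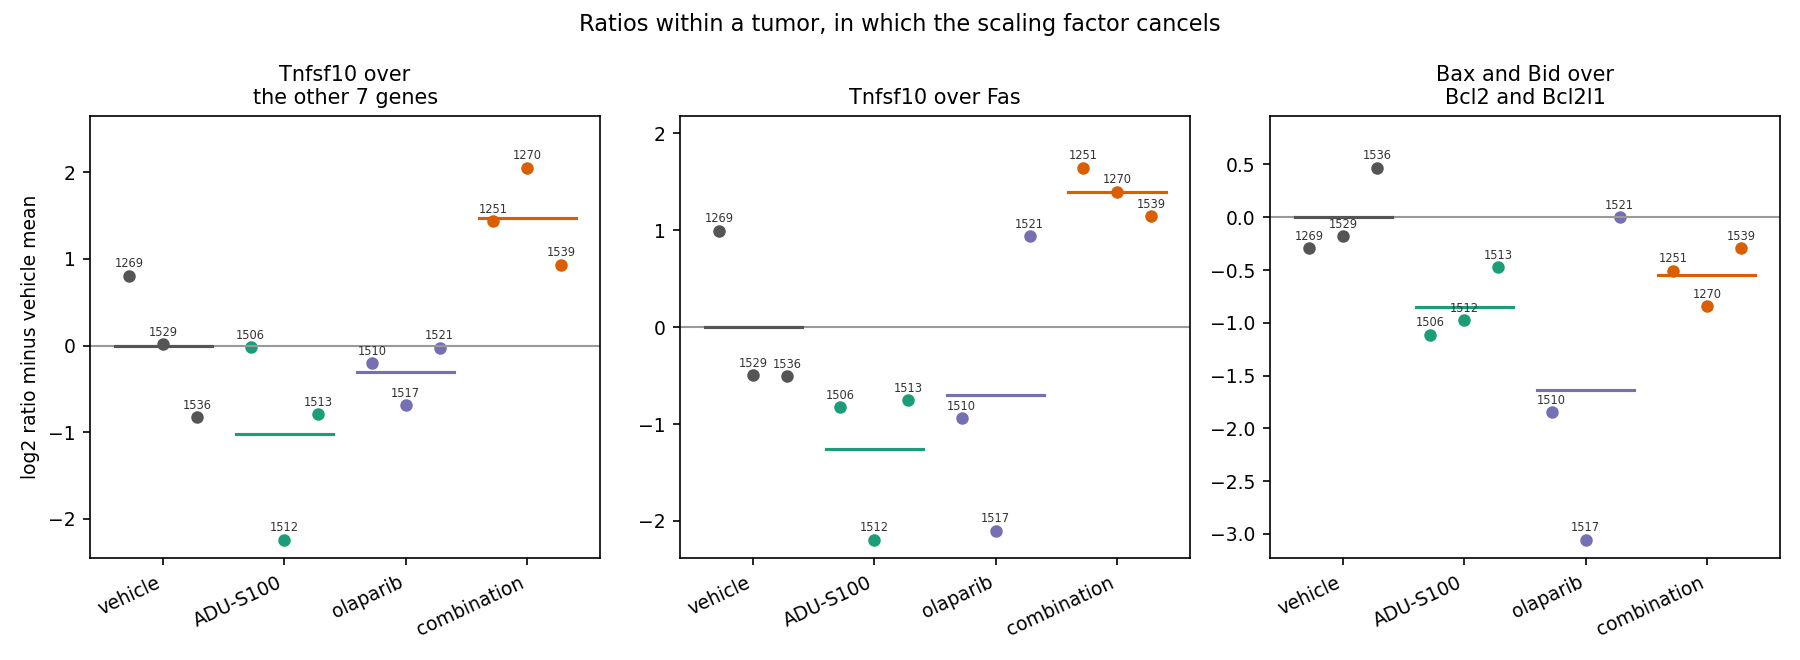
Log2 ratios between genes of the same tumor minus the vehicle mean, for Tnfsf10 over the other 7 genes, Tnfsf10 over Fas, and Bax and Bid over Bcl2 and Bcl2l1, with the tumor number above each point and the group mean as a line. The combination tumors lie above all vehicle tumors in the first and second ratios, and ADU-S100 and combination tumors lie below all vehicle tumors in the last.

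Fas, the receptor of Fas ligand, varied more among tumors than between treatments. It was 219, 418 and 159 normalized counts in the vehicle tumors 1269, 1529 and 1536, and 209, 402 and 216 in the combination tumors 1251, 1270 and 1539. These groups covered nearly the same range. Fas was 567, 220 and 273 in the ADU-S100 tumors 1506, 1512 and 1513, and 452, 1100 and 107 in the olaparib tumors 1510, 1517 and 1521. Olaparib thus held both the highest and the lowest Fas of the 12 tumors, 10.3-fold apart. The log2 fold change against vehicle was 0.10 in combination, 0.41 in ADU-S100 and 0.62 in olaparib tumors (SE 0.76, limma adjusted p 0.989, 0.927 and 0.760), and without olaparib 1517 the last was -0.15. After median scaling of the tumors, the first became -0.10 and the second was 0.00 to 2 decimals.

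Fadd, which links death receptors to caspase-8, was the steadiest of the 8 genes. It lay between 99.4 and 174 normalized counts in all 12 tumors, a 1.75-fold range, and its SD within groups on the log2 scale was 0.30, at percentile 6.82 of the 689 genes (median 0.79). The group means were 152 ± 24.7 in vehicle, 138 ± 23.3 in ADU-S100, 147 ± 41.3 in olaparib and 146 ± 23.2 in combination tumors (SD, n = 3 each). For the combination, log2 Fadd differed from vehicle by -0.05 with a 95% interval of -0.84 to 0.75, which leaves room for change in either direction. Its steadiness belongs to the authors' scaling, since after median scaling the SD within groups was 0.57 beside a median of 0.66. In olaparib 1517 the value rests on 16 recovered counts.

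Casp8, the initiator caspase recruited by Fadd, was also narrow in the combination, at 866, 893 and 819 normalized counts in 1251, 1270 and 1539. It was 910, 1100 and 682 in the vehicle tumors 1269, 1529 and 1536, 1279, 1045 and 676 in the ADU-S100 tumors 1506, 1512 and 1513, and 684, 1603 and 994 in the olaparib tumors 1510, 1517 and 1521. As deposited all 4 groups overlapped, and the highest value was again olaparib 1517. Against vehicle the log2 fold changes were -0.04, 0.13 and 0.22 in combination, ADU-S100 and olaparib tumors (SE 0.42, adjusted p 0.989, 0.954 and 0.836). The 95% interval for the combination was -0.95 to 0.88.

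Among the pro-death members of the BCL2 family, Bid, the substrate of caspase-8, was at its highest mean in vehicle, and as deposited Bax in each drug group overlapped with vehicle. Bid was 1486, 1054 and 1033 normalized counts in the vehicle tumors 1269, 1529 and 1536, and 918, 782 and 1155 in the combination tumors 1251, 1270 and 1539. It was 604, 446 and 1380 in the ADU-S100 tumors 1506, 1512 and 1513, and 542, 199 and 1050 in the olaparib tumors 1510, 1517 and 1521. Under each single drug 2 tumors were below all vehicle tumors and the other was within their range. The log2 fold change against vehicle was -1.28 (SE 0.60) in olaparib, a 2.42-fold lower mean, with a limma adjusted p of 0.582, and was -0.71 in ADU-S100 (adjusted p = 0.809) and -0.32 in combination tumors (adjusted p = 0.989). The olaparib value was -0.64 without 1517, in which Bid rests on 19 recovered counts, and -1.83 without 1521. With the log2 scaling factor as a covariate it was -0.49. Bax, which perforates the mitochondrial membrane, lay between 293 and 629 normalized counts in all tumors, a 2.14-fold range. Its means were 438 ± 125 in vehicle, 502 ± 36.8 in ADU-S100, 456 ± 150 in olaparib and 389 ± 46.6 in combination tumors (SD, n = 3 each). The ADU-S100 tumors (475 to 544) lay above the combination tumors (340 to 433), with a log2 difference of -0.37 for combination against ADU-S100 (SE 0.38, adjusted p = 0.702). These groups overlapped under median scaling, quantile normalization and TMM, and under TMM the combination tumors were instead all below vehicle.

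The pro-survival genes had their highest means under olaparib, carried by part of its tumors. Bcl2 was 1001, 883 and 425 normalized counts in the vehicle tumors 1269, 1529 and 1536, and 2087, 2012 and 467 in the olaparib tumors 1510, 1517 and 1521. Olaparib 1521 was within the vehicle range while the other olaparib tumors were above the tumors of every other group. Bcl2 was 1188, 1016 and 1432 in the ADU-S100 tumors 1506, 1512 and 1513, each above vehicle though 1512 hardly differed from vehicle 1269, and 785, 1202 and 814 in the combination tumors 1251, 1270 and 1539, which overlapped with vehicle. The log2 fold changes against vehicle were 0.79 for olaparib, 0.73 for ADU-S100 and 0.34 for the combination (SE 0.58, limma adjusted p 0.623, 0.809 and 0.989). The olaparib change was 0.41 without the vehicle tumor 1536, 1.50 without olaparib 1521 (adjusted p = 0.0564) and 0.21 with the scaling factor as a covariate. For ADU-S100 the change was 0.35 without vehicle 1536, 0.97 without vehicle 1269 and 0.23 with the covariate.

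Bcl2l1, which encodes Bcl-xL, was 418, 505 and 411 normalized counts in the vehicle tumors 1269, 1529 and 1536, and 826, 2756 and 516 in the olaparib tumors 1510, 1517 and 1521. It was 829, 529 and 568 in the ADU-S100 tumors 1506, 1512 and 1513, and 657, 458 and 539 in the combination tumors 1251, 1270 and 1539. Every tumor given a single drug was above every vehicle tumor, although ADU-S100 1512 and olaparib 1521 exceeded vehicle 1529 by little, and the combination overlapped with vehicle. The log2 fold change was 1.25 (SE 0.54) for olaparib, a fold of 2.38, with an adjusted p of 0.582, and 0.50 for ADU-S100 (adjusted p = 0.861) and 0.30 for the combination (adjusted p = 0.989). Each olaparib tumor remained above each vehicle tumor under median scaling, quantile normalization and TMM, while the ADU-S100 tumors overlapped with vehicle under all 3. With the scaling factor as a covariate the olaparib change was 0.48 and the ADU-S100 change reversed to -0.15. The olaparib change was 0.56 without olaparib 1517, and without olaparib 1521 it was 1.77 with an adjusted p of 0.0526. That fit, which leaves the olaparib group with 2 tumors of different depth, called 55 of all genes between olaparib and vehicle, where the fit of all tumors called 0.

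Counted over the 8 genes, 0 passed the adjusted threshold in any comparison, with a background of 0% of 689 genes. At an unadjusted limma p under 0.05, 0 of 8 were reached in combination against vehicle (background 7.69%) and 0 of 8 in ADU-S100 against vehicle (4.79%). Bcl2l1 alone was reached in olaparib against vehicle (7.26%). Tnfsf10 alone was reached in combination against ADU-S100 (9.14%), in combination against olaparib (7.26%) and in the interaction (10.9%). Groups that did not overlap were found for Tnfsf10 in combination against vehicle (background 20% of 689 genes in either direction), for Bcl2 and Bcl2l1 in ADU-S100 against vehicle (14.9%), for Bcl2l1 in olaparib against vehicle (4.79%), for Tnfsf10 and Bax in combination against ADU-S100 (31.3%), and for Tnfsf10 in combination against olaparib (12.8%). With 1 or 2 of 8 genes in each comparison, these counts are too few to set apart from the background. Under median scaling, quantile normalization and TMM, Tnfsf10 against each single drug and Bcl2l1 in olaparib against vehicle still did not overlap, whereas overlap appeared under all 3 for Tnfsf10 in combination against vehicle, for Bcl2 and Bcl2l1 in ADU-S100 against vehicle and for Bax in combination against ADU-S100. Other groups separated only there: Bcl2l1 was lower in each combination tumor than in any olaparib tumor under all 3. Casp8 was lower in combination than in vehicle without overlap under quantile normalization and TMM, and under TMM so was Bax, as was Fadd in ADU-S100 against vehicle. The median log2 fold change of the 8 genes was 0.03 in combination, 0.19 in ADU-S100 and 0.14 in olaparib tumors against vehicle, beside 0.21, 0.44 and 0.45 over all 689 genes. As deposited the median change was thus above 0 in each treated group, but the tumors overlapped. The median value of the 750 genes was 214 in vehicle 1529 and 150 to 165 in the combination tumors. Median scaling, which levels the tumors by design, gave all-gene medians of 0.0094, 0.031 and 0.10. Relative to the deposited medians, Fadd, Casp8, Bid and Bax were below the typical gene in each of the 3 comparisons.

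**Figure D3:**
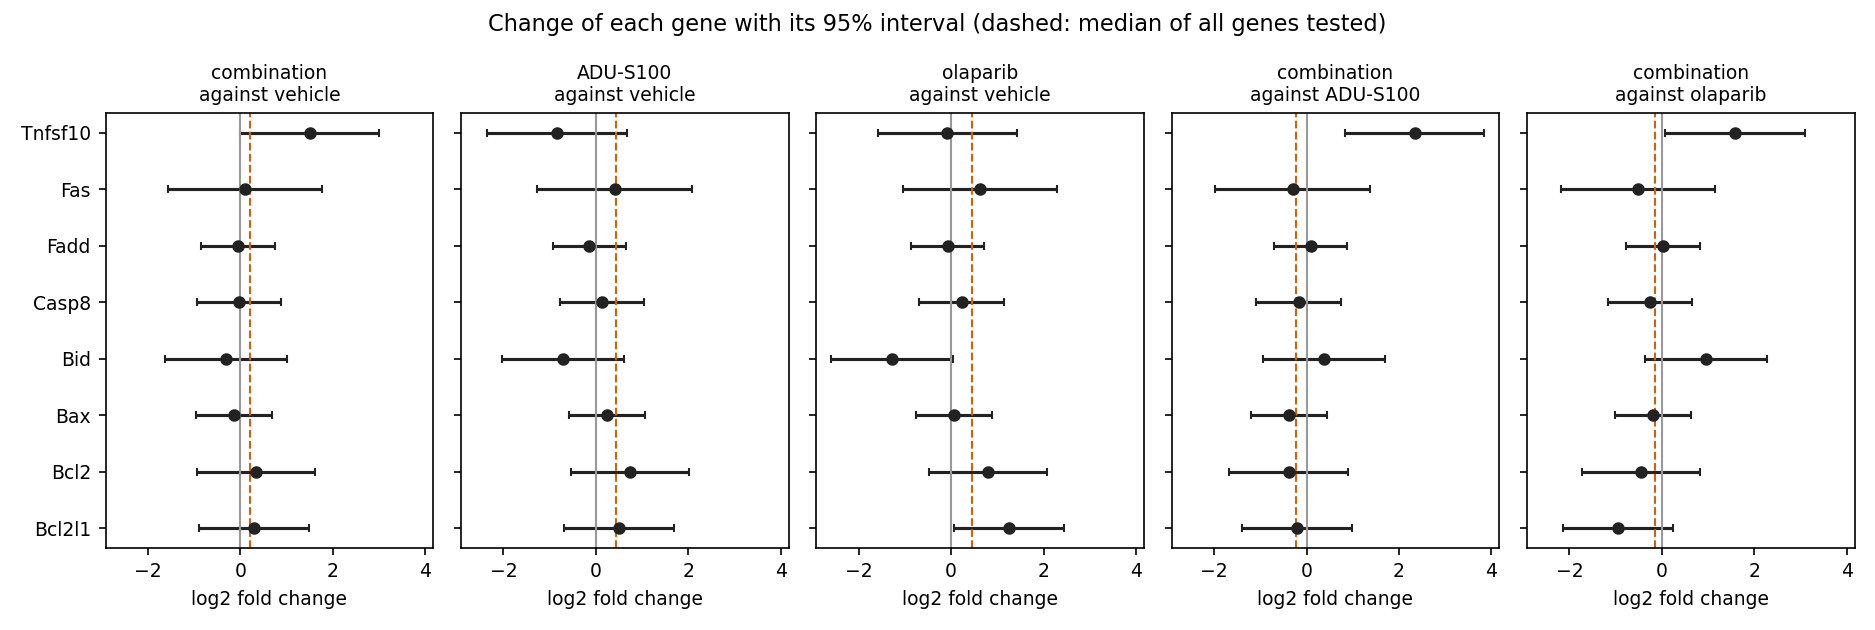
Log2 fold change of each of the 8 genes in 5 comparisons, with limma 95% intervals as bars, a grey line at 0 and a dashed line at the median of the 689 genes. The interval of Tnfsf10 lies above 0 against ADU-S100 and against olaparib, that of Bcl2l1 lies above 0 in olaparib against vehicle, and all other intervals include 0, all before adjustment over the genes.

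The death ligand and receptor were then set against the genes that act after them. The mean log2 of Tnfsf10 and Fas over that of Casp8, Bid, Bax, Bcl2 and Bcl2l1, relative to vehicle, was 0.77 ± 0.58 (SD, n = 3) in combination, 0.06 ± 0.59 (SD, n = 3) in olaparib and -0.40 ± 0.85 (SD, n = 3) in ADU-S100 tumors. The lowest combination tumor, at 0.350, and the highest vehicle tumor, at 0.343, were almost level, and ADU-S100 1506 (0.491) and olaparib 1517 (0.524) were above that combination tumor. Inside the BCL2 family, the mean log2 of Bax and Bid over that of Bcl2 and Bcl2l1 was lower than in vehicle in all 3 treated groups, at -0.55 ± 0.28 (SD, n = 3) under the combination, -0.85 ± 0.33 (SD, n = 3) under ADU-S100 and -1.63 ± 1.54 (SD, n = 3) under olaparib. The vehicle tumors were at -0.29 (1269), -0.18 (1529) and 0.47 (1536). Combination tumors (-0.84 to -0.29) lay just under them, ADU-S100 tumors (-1.11 to -0.48) lay below them, and olaparib ran from -3.05 in 1517 to 0.00 in 1521, so that olaparib overlapped. Bid over Bcl2l1 differed most, at -2.53 ± 2.45 (SD, n = 3) in olaparib, with -5.20 in 1517 (the tumor with the factor of 10.5), -2.01 in 1510 and -0.38 in 1521. As in Bid over Bcl2l1, the olaparib tumors lay below vehicle in Bax over Bcl2l1, at -1.19 ± 0.81 (SD, n = 3), but in both ratios olaparib 1521 was only just below the lowest vehicle tumor (-0.38 against -0.35 and -0.46 against -0.45). Bax over Bcl2 overlapped with vehicle under every treatment. These ratios were not tested.

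Several of the 8 genes moved with the scaling factor of the tumor, which is itself part of the normalized value. Over the 12 tumors, log2 Fas correlated with the log2 factor with r = 0.86 (permutation p = 0.0004) and rho = 0.88 (permutation p = 0.00033), Bcl2l1 with r = 0.90 (permutation p = 0.001) and rho = 0.68 (permutation p = 0.0178), and Bid with r = -0.86 (permutation p = 0.00167) and rho = -0.69 (permutation p = 0.0171). The Benjamini-Hochberg adjusted permutation p over the 8 genes was 0.0032, 0.004 and 0.00445 for these r, and 0.00264, 0.0318 and 0.0318 for the rho. Without the tumors 1506 and 1517, which had the factors farthest from the median, r was 0.64 for Fas, 0.56 for Bcl2l1 and -0.61 for Bid. Within the 9 tumors of the 15 series it was 0.92, 0.91 and -0.87. The median r of the 689 genes was 0.59 (quartiles 0.13 and 0.81), so that Fas and Bcl2l1 lie with the upper part of the table and Bid opposite to most of it. Bcl2 (r = 0.72, permutation p = 0.00707, rho = 0.73, permutation p = 0.00894) and Bax (r = 0.72, permutation p = 0.00617, rho = 0.67, permutation p = 0.0199) went with the factor too, with r of 0.70 and 0.47 without those tumors, whereas Casp8 (r = 0.66, permutation p = 0.0192, rho = 0.46, permutation p = 0.134) had r of -0.03 without them. Tnfsf10 (r = -0.22, permutation p = 0.475, rho = -0.15, permutation p = 0.65) and Fadd (r = 0.02, permutation p = 0.95, rho = -0.21, permutation p = 0.515) gave values that did not pass the threshold. The signs depend on the scaling, because the factor is part of the deposited values. After median scaling r with the factor, given without a test, was -0.93 for Bid, -0.84 for Fadd, -0.59 for Tnfsf10, -0.55 for Bax and -0.54 for Casp8, and 0.65 for Fas, 0.46 for Bcl2l1 and 0.10 for Bcl2. The combination tumors had factors of 0.810 to 0.824, and those of the vehicle tumors were 0.682, 1.49 and 0.693. With the log2 factor as a covariate, the olaparib changes against vehicle were -0.49 for Bid, 0.21 for Bcl2, 0.48 for Bcl2l1 and -0.51 for Fas, where the fit without it gave -1.28, 0.79, 1.25 and 0.62.

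**Figure D4:**
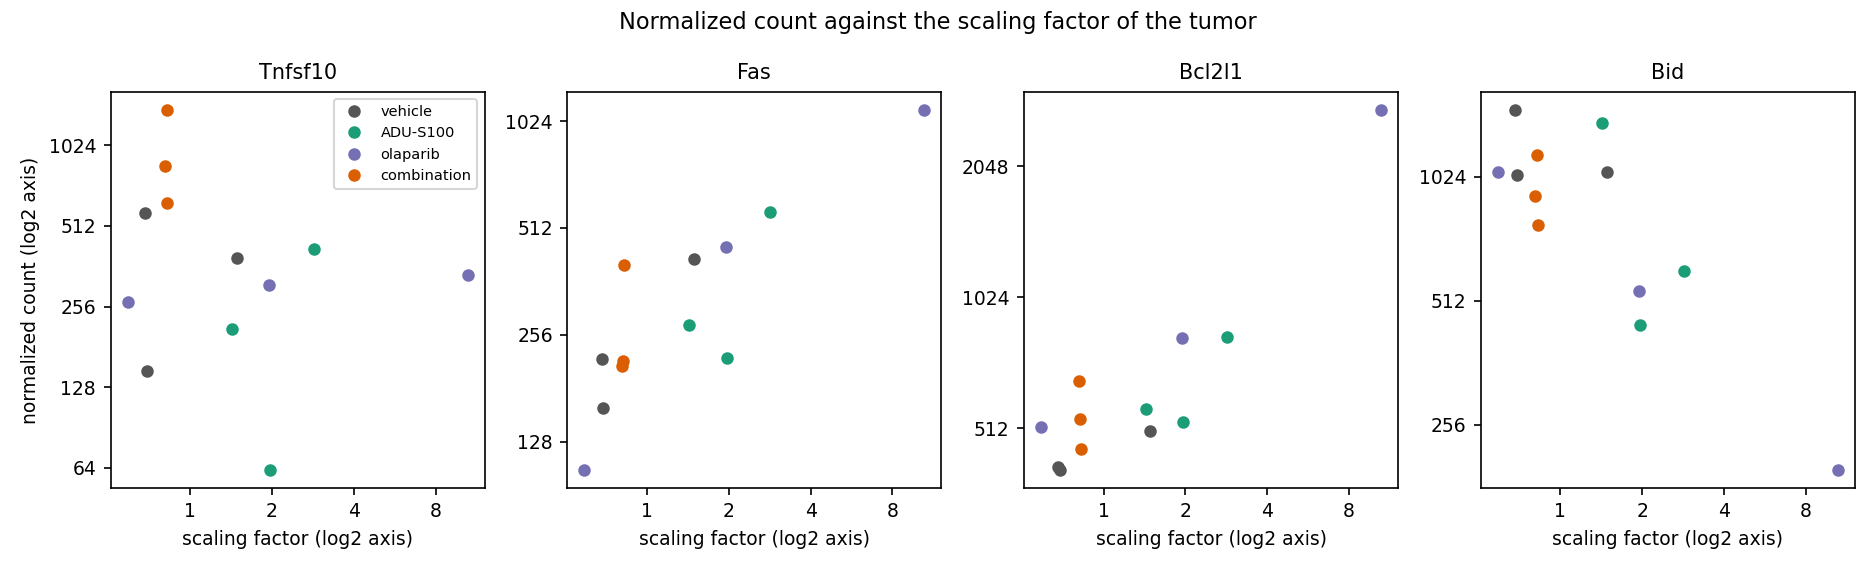
Normalized count against the scaling factor of the tumor, both on log2 axes that do not start at 0, for Tnfsf10, Fas, Bcl2l1 and Bid in 12 tumors coloured by treatment. Fas and Bcl2l1 are high and Bid is low in the olaparib tumor with the factor of 10.5, while the Tnfsf10 points of the combination stand high at factors near 0.8.

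The genes with the most similar course were named for each of the 8 as those with the highest Pearson r over the 12 tumors. They were H2-DMa (r = 0.89) and Ifi35 (r = 0.87) for Tnfsf10, Nod1 (0.96) and Prkce (0.95) for Fas, and Ifnar2 (0.75) and Jak2 (0.75) for Fadd. For Casp8 Ikbkb (0.88) is given, for Bid they were Cxcr4 (0.92) and Tgfb2 (0.88), and for Bax Nfatc4 (0.96) and Lrp1 (0.92). For Bcl2 they were Creb1 (0.95) and Map3k5 (0.92), and for Bcl2l1 Havcr2 (0.97) is given. The points share the factor, and after median scaling only Nod1, Cxcr4 and Havcr2 of those named were still among the first pair for their gene, with Cd5 (0.90) and H2-Aa (0.88) taking the places for Tnfsf10. Among the 8 genes themselves, Fas and Bcl2 had the highest r (0.82) and Bid and Bcl2l1 the lowest (-0.84), which became 0.56 and -0.39 after median scaling. Other pairs were then at the ends, Fadd and Bid with 0.88 (0.16 as deposited) and Fas and Fadd with -0.61 (0.05 as deposited), so that the order of the pairs belongs to the scaling. For Tnfsf10, r with the other 7 ran from -0.43 (Bax) to 0.35 (Fadd) as deposited and from -0.22 (Bcl2l1) to 0.45 (Bid) after median scaling.

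Type I interferon targets were measured beside Tnfsf10. Of 25 in the list, 22 were measured and 21 tested, and against vehicle 21 were higher in combination, 19 in ADU-S100 and 20 in olaparib tumors, where 65.3%, 78.2% and 74.6% of all 689 genes were higher. Of the 21, 0 passed the adjusted threshold of limma and 7, 2 and 3 had an unadjusted p under 0.05 (background 7.69%, 4.79% and 7.26%). Their median log2 fold changes were 1.45, 0.47 and 0.93, beside the all-gene medians of 0.21, 0.44 and 0.45. All 21 were higher in combination tumors under each scaling tried, but for ADU-S100 the number higher was 11 after median scaling, 16 after quantile normalization and 4 with TMM. As deposited, Ifi44 and Ifi35 of the 21 shared with Tnfsf10 that each combination tumor exceeded the 9 others (background 3.19%), a pattern that Tnfsf10 lost under the other scalings. The summed level of the list was 50330 to 52499 in combination, 8990 to 40148 in vehicle, 15818 to 56543 in ADU-S100 and 30706 to 70703 in olaparib tumors, a sum in which the most abundant genes weigh most. Markers of other cell types were then read, and 0 of those tested passed the adjusted threshold of limma against vehicle. All 10 T cell markers that were tested were higher in combination than in vehicle (4 at an unadjusted p under 0.05), with a median of 1.29, as they were under each scaling tried (medians 0.77 to 1.34). As deposited 9 of the 10 were higher in ADU-S100 (median 0.72) and in olaparib tumors (median 0.89), and 4 to 8 and 6 to 8 under the other scalings. The 11 together summed to 404 to 653 in combination, 135 to 287 in vehicle, 253 to 644 in ADU-S100 and 172 to 943 in olaparib tumors. NK cell markers summed to 160 to 238 in combination, 95.2 to 159 in vehicle, 166 to 578 in ADU-S100 and 84.9 to 901 in olaparib tumors, with median log2 fold changes against vehicle of 0.89, 1.51 and 1.16 under the combination, ADU-S100 and olaparib. Over the other scalings tried these medians were 0.35 to 0.98, 0.64 to 1.10 and 0.10 to 0.88, the lowest olaparib value (3 of 6 genes higher) being that with the factor as a covariate. Stromal genes summed to 15569 to 30113 in combination, 18427 to 94419 in vehicle, 36777 to 60721 in ADU-S100 and 7215 to 31114 in olaparib tumors. All 8 tested stromal genes were lower than in vehicle both in combination (median -1.11) and in olaparib tumors (median -1.28), and 6 of 8 in ADU-S100 tumors (median -0.40, and -0.62 to -1.05 with 6 to 8 of 8 lower under the other scalings). All 7 tested endothelial genes were lower in combination than in vehicle (median -0.84, and -0.68 to -1.56 under the other scalings tried). In ADU-S100 tumors 4 of 7 were lower as deposited (median -0.02), and all 7 under the other scalings (medians -0.31 to -1.63). In olaparib tumors 5 of 7 were lower as deposited (median -0.19), and 2 to 7 under the other scalings (medians 0.03 to -1.93). As deposited all 6 tested granulocyte genes were higher in combination (median 0.85) and in ADU-S100 tumors, with 4 to 6 of 6 higher under the other scalings. Macrophage and monocyte genes went the other way in part: 7 of 10 were lower in combination (median -0.13) and in olaparib tumors (median -0.17), and 8 of 10 were higher in ADU-S100 tumors (median 0.29). Under median scaling, quantile normalization and TMM 9 of these 10 were lower in combination, and the ADU-S100 median was below 0. Of 5 dendritic cell genes, 4 were higher in combination (median 0.44), 4 in ADU-S100 (median 0.22) and 5 in olaparib tumors (median 0.60). Under the other scalings these counts were 3 or 4, 1 to 3, and 3 or 4. Both tested B cell genes were higher under each treatment, with medians of 0.60 in combination, 1.02 in ADU-S100 and 1.35 in olaparib tumors. The leukocyte gene Ptprc differed by 0.55, 0.88 and 0.21 in the same order, the last being below 0 under the other scalings tried. The part of these cell types in the level of Tnfsf10 was not tested.

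The panel measured 26 other cell death genes of the list used here. They were 7 ligands of the TNF family, 6 receptors, 4 adaptors and inhibitors (Traf2, Traf3, Traf6 and Birc5), 2 caspases, Bcl10, and 6 genes listed for granule killing. The last include Klrk1, a surface receptor. Cflar, which blocks caspase-8, and Mcl1, a pro-survival relative of Bcl2, were looked for and are not among the 750 genes under these symbols. None of the 26 passed the adjusted threshold of limma in any comparison. Fasl, the ligand of Fas, had the largest difference among these 7 ligands, with a log2 fold change of 2.01 in olaparib against vehicle (SE 0.65, adjusted p = 0.577), from low levels of 36.8 ± 25.3 against 7.93 ± 6.01 normalized counts (SD, n = 3 each). It was 17.4 ± 7.83 in ADU-S100 and 11.5 ± 3.85 in combination tumors (SD, n = 3 each), so the highest Fasl mean was not where Tnfsf10 was highest. Tnf, another inducer of receptor-mediated death, differed by 1.11 in combination (adjusted p = 0.594) and 1.20 in olaparib tumors (adjusted p = 0.582).

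Granule killing, the route by which T and NK cells kill without death receptors, was measured at low counts. All 6 genes were higher than in vehicle under each treatment as deposited (4 to 6 of the 6 under the other scalings tried), with median log2 fold changes of 1.15 in combination, 1.39 in ADU-S100 and 1.57 in olaparib tumors, beside the all-gene medians given above. The medians were smaller under some other scalings: 0.45 in ADU-S100 and 0.75 in olaparib tumors with quantile normalization, and 0.55 and 0.25 with the factor as a covariate. Klrk1, the activating receptor NKG2D, lies on the cell surface and not in granules. It was 88.9 ± 5.33 in combination and 17.0 ± 7.06 in vehicle tumors (SD, n = 3 each), a log2 fold change of 2.41 (SE 0.61, limma adjusted p = 0.278). The change was 1.58 in olaparib (adjusted p = 0.577). In ADU-S100 tumors Klrk1 was 54.9 ± 53.6 (SD, n = 3), and 1506 (117) was above each combination tumor (84.4 to 94.8). Gzma, a granzyme, differed by 2.71 in ADU-S100 against vehicle (adjusted p = 0.809), where it was 168 ± 188 against 17.7 ± 9.58 normalized counts (SD, n = 3 each). Prf1, the pore-forming perforin, was 5.0 ± 2.14 in vehicle, 33.2 ± 37.9 in ADU-S100, 28.9 ± 30.9 in olaparib and 13.4 ± 6.30 in combination tumors (SD, n = 3 each). The spread of Gzma and Prf1 within the ADU-S100 group was as large as its mean, and the highest Fasl and Prf1 of the olaparib group, both 62.9 in 1517, rest on 6 recovered counts each.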

How the data were processed

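RNA of 12 transplanted breast tumors was measured with an nCounter mouse immune panel. The deposited values are a signal: normalized counts of 750 genes that the authors processed in nSolver 4.0, where background was corrected and positive controls and housekeeping genes set the scale. Groups were taken from the labels. The counts before scaling were recovered from the step between values in each tumor, at least 99.87% of the values being whole within 0.01 of a count, and summed to 106206 to 1519471 per tumor. Low counts limit precision. Poisson intervals on recovered counts cover counting error only, whereas the limma intervals rest on the spread between tumors.

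Limma 3.58.1 in R 4.3.3 was run on log2(normalized count + 1), which understates the change of low genes, for 689 genes with at least 20 in at least 3 tumors. One mean per group was fitted over all tumors, with Benjamini-Hochberg adjustment over the 689 genes and a threshold of 0.05. The fit was also run on simulated data, and the outcome is not given here. A limma p-value sets a difference of group means against the spread within groups. That spread is pooled over the 4 groups and moderated over the 689 genes. The alternatives tried were all genes, a filter at 50, a pseudocount of 10, median scaling, quantile normalization, the quasi-likelihood test of edgeR 4.0.16 on recovered counts (authors' factors or TMM), the methods' t-test, a block for the number series, omission of each tumor in turn and, chosen after seeing the data, the log2 factor as a covariate and the overlap of groups and the list counts under each scaling. The methods' t-test was adjusted by Benjamini-Hochberg here, and not by the Benjamini-Yekutieli method that the authors name. Permutation tests were two-sided with 100000 draws. The text names the 8 genes, the pair most like each, other cell death genes with an unadjusted p under 0.05 against vehicle, and Tnfrsf10b, Fasl, Cflar, Mcl1, Trp53 and Prf1. Some genes that this rule selects are not reported here. Ifi44, Ptprc, Cd5 and H2-Aa were named after their values were seen. The genes and lists were chosen with earlier results of these data known. Promoter sequences are from RefSeq (GRCm38.p6). Figures used matplotlib 3.10.9.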

Additional observations from a re-analysis of the deposited data

How the results depend on the processing

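Over 48 changes (8 genes in 6 comparisons) and up to 22 alternative fits each, 1048 values were computed, of which 968 kept their direction, 80 reversed and 0 passed the adjusted threshold. The lowest adjusted p was 0.0526. The change of Tnfsf10 kept its direction in combination against vehicle, ADU-S100 and olaparib, in ADU-S100 against vehicle and in the interaction. For combination against vehicle it was 0.98 to 1.52 over the alternatives other than leaving out a tumor (adjusted p 0.293 to 0.999 over all). Its olaparib change of -0.08 became 0.26 with the number series as a block. Counts of genes past the threshold, 0 in each comparison, became 1 for combination against ADU-S100 with a pseudocount of 10, a filter at 50, median scaling or quantile normalization. For combination against vehicle they became 3 with the methods' t-test under Benjamini-Hochberg adjustment (86 unadjusted) and 4 with the factor as a covariate. With each tumor left out they ranged from 0 to 1 for combination against ADU-S100, 0 to 54 for combination against olaparib, 0 to 55 for olaparib against vehicle and 0 to 86 for the interaction, the highest without olaparib 1521 except for the first (without ADU-S100 1506).

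With median scaling, reversed values were -0.17 (Bax), -0.27 (Casp8) and -0.0039 (Fas) for ADU-S100, -0.29 (Bax) and -0.12 (Casp8) for olaparib and -0.10 (Fas) for combination against vehicle, 0.033 (Casp8) against ADU-S100, and 0.12 (Bax) and 0.16 (Casp8) for the interaction. With quantile normalization they were -0.18 (Bax) and -0.12 (Casp8) for ADU-S100, -0.28 (Bax) and -0.049 (Casp8) for olaparib, -0.061 (Fas) for the combination and 0.12 (Bax) for the interaction. With edgeR and TMM they were -0.30 (Bax), -0.026 (Bcl2l1), -0.39 (Casp8) and -0.12 (Fas) for ADU-S100, -0.44 (Bax) and -0.20 (Casp8) for olaparib, -0.090 (Bcl2), -0.046 (Bcl2l1) and -0.22 (Fas) for combination against vehicle, -0.027 (Fadd) against olaparib, and 0.23 (Bax) and 0.19 (Casp8) for the interaction. With the block, Bax was 0.0069 for combination against vehicle, 0.089 against olaparib and -0.082 for olaparib against vehicle. With the factor as a covariate, values were -0.013 (Bax), -0.15 (Bcl2l1), -0.15 (Casp8) and -0.56 (Fas) for ADU-S100, -0.24 (Bax), -0.11 (Casp8) and -0.51 (Fas) for olaparib, 0.16 (Bcl2), 0.52 (Bcl2l1), -0.36 (Bid), 0.14 (Casp8) and 0.76 (Fas) for combination against ADU-S100, 0.13 (Bax), 0.19 (Bcl2), 0.10 (Casp8) and 0.71 (Fas) against olaparib, and 0.15 (Bax), 0.034 (Bcl2l1), 0.25 (Casp8) and 1.27 (Fas) for the interaction.

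Leaving out 1 tumor gave, against vehicle, ranges of -0.026 to 0.38 (Bax) and -0.067 to 0.39 (Casp8) for ADU-S100, of -0.21 to 0.21 (Bax), -0.095 to 0.52 (Casp8), -0.22 to 0.18 (Fadd), -0.15 to 1.53 (Fas) and -0.64 to 0.34 (Tnfsf10) for olaparib, and of -0.40 to 0.0068 (Bax), -0.038 to 0.58 (Bcl2), -0.22 to 0.12 (Casp8), -0.19 to 0.032 (Fadd) and -0.20 to 0.49 (Fas) for the combination. Against ADU-S100 the ranges were -0.43 to 0.030 (Casp8), -0.037 to 0.21 (Fadd) and -0.61 to 0.10 (Fas), against olaparib -0.34 to 0.066 (Bax), -0.56 to 0.059 (Casp8), -0.23 to 0.17 (Fadd) and -1.42 to 0.26 (Fas), and for the interaction -0.093 to 0.31 (Fadd). The cause of these reversals was not tested. No paired analysis was possible because the tumors of different groups share no number. The methods' t-test has no interaction. With 3 tumors per group, and with the lowest total in olaparib 1517 (106206), changes near the size of the SEs were not detectable.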
